A study of Bubalus bubalis with 36 samples.

Results

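Matrix metalloproteinases (MMP), the disintegrin metalloproteinases (ADAM), the secreted ADAMTS proteases, the ADAMTS-like proteins (ADAMTSL) and the tissue inhibitors of metalloproteinases (TIMP) were described across 6 adipose depots of river buffaloes. Members were taken by gene symbol and mean level: of 55 symbols of these families among the annotated gene models, 51 had a mean above 0.1 FPKM (sequenced fragments scaled for transcript length and library size) and were kept, each as the gene model with the highest mean. The 4 symbols left out were MMP1 at a mean of 0.0214 FPKM, MMP13 at 0.0699 FPKM, MMP20 at 0.000389 FPKM and MMP25 at 0.0960 FPKM. ADAMTS8 at 0.176 FPKM and ADAM28 at 0.189 FPKM lay closest above the limit. The whole table held 23032 gene models, of which 17688 were tested. Gene names came from the deposited annotation and were absent for 6773 models; among the TIMPs, TIMP2 was the only one found by symbol, and the others were not analysed here.

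RNA sequencing covered 36 libraries, 1 from each of 6 depots of 6 buffaloes aged 19 to 21 months. Subcutaneous adipose tissue (SAT) was sampled at the back (BSAT), the sternum (SSAT) and the inguinal region (IAT), and visceral adipose tissue (VAT) at the omentum (OAT), the pericardium (PCAT) and the kidney (perirenal, PRAT). Animals 1 to 3 were males labelled Murrah and animals 4 to 6 females labelled Nili-Ravi, so that sex and breed cannot be told apart. A supplementary list of the animals gives the breed as Murrah for every one, and the labels were used here. Each library was made from bulk tissue, in which fewer cells of a type and less RNA per cell cannot be told apart.

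MMPs are zinc proteases that cut collagens and other matrix proteins, either secreted or anchored in the cell membrane, and TIMPs bind and inhibit them. ADAMs sit in the membrane and mostly release the outer parts of other membrane proteins, whereas ADAMTS enzymes are secreted and trim procollagens, fibrillin-associated proteins or the large proteoglycans versican and aggrecan. ADAMTSL proteins resemble ADAMTS enzymes without the protease domain and bind to microfibrils. In adipose tissue these families take part in the remodelling of the matrix that surrounds adipocytes.

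Several libraries stood apart in cell type markers. All 10 adipocyte markers measured were above 0 in every library, ADIPOQ between 32.6 and 3294 FPKM. Marker scores are the mean over a list of log2(FPKM + 0.1) less each gene's mean over the 36 libraries. In 6 libraries (OAT of animals 1 and 4, PRAT of animals 2 and 4, IAT of animal 4 and PCAT of animal 2) the B cell and plasma cell score was 2.87 to 5.43, against at most 1.37 elsewhere. The T and natural killer cell score of these 6 was high as well, at 2.23 to 4.70, against at most 1.32 elsewhere. They are called rich in B cell markers below, and B and T cell content cannot be told apart in them. The BSAT library of animal 1 had a skeletal muscle score of 5.75, against at most 0.31 elsewhere. In 4 libraries (OAT of animals 1 and 4, PCAT and PRAT of animal 4) the adipocyte score was −3.78 to −2.71, against at least −0.91 elsewhere.

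The members together took 0.347% of all FPKM on average over the 36 libraries (range 0.178% to 0.635%). SATs had a share of 0.357% ± 0.0406 and VATs one of 0.336% ± 0.111 (SD over 18 libraries of each class), and the ranges overlapped. A few members made up most of it, since the 10 most abundant held 77.1% of member FPKM on average (68.8% to 83.6%). The highest means were those of ADAMTS9, which cuts versican and aggrecan, at 515 FPKM and of MMP2, the secreted gelatinase A, at 511 FPKM. ADAMTS12, an enzyme known to cut cartilage oligomeric matrix protein (COMP), followed at 345 FPKM, the fibrillin-binding ADAMTS10 at 184 FPKM and the membrane-anchored collagenase MMP14 at 182 FPKM. ADAM15, TIMP2, ADAMTS15, ADAM17 and ADAM19 completed the first 10, with means of 126, 121, 102, 95.5 and 72.3 FPKM. MMP9, the other gelatinase and a product of neutrophils and macrophages, averaged 0.930 FPKM.

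Members differed in how steady they were between libraries. ADAM17, the sheddase that releases tumour necrosis factor, had a coefficient of variation of 10.6% over the 36 libraries, and the related sheddase ADAM10 one of 21.1%. The coefficient was 66.4% for ADAMTS9 and 49.2% for MMP2, and it reached 204% for ADAM30, a member best known from testis.

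**Figure D1:**
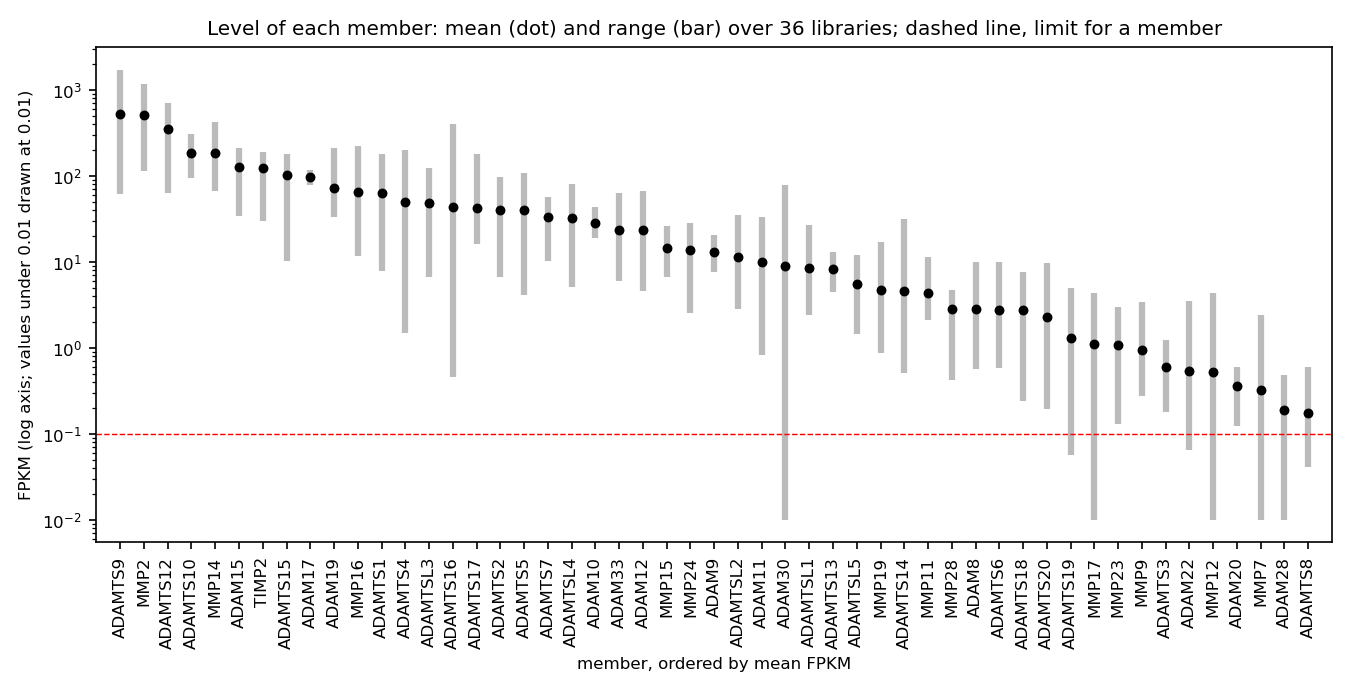
Mean (dot) and range (bar) of each of the 51 members over 36 libraries, in FPKM on a log axis, ordered by mean; the dashed line marks the limit of 0.1 FPKM. ADAMTS9 and MMP2 lie highest, at 515 and 511 FPKM, and ADAM17 has a short bar for its level.

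The first comparison set the 3 SAT depots against the 3 VAT depots, with 18 libraries of each class from the same 6 animals. Of the 51 members, 13 were higher in SATs and 6 were lower (limma on log2(FPKM + 0.1), Benjamini-Hochberg adjusted p under 0.05 over all gene models, two-sided), which is 25.5% and 11.8% of members. Over all tested gene models 7.9% were higher and 22.1% lower in SATs, and 30% were called in either direction, against 37.3% of the members. The median log2 difference was 0.02 over the members and −0.13 over all gene models. With quantile normalization 55.0% of all calls were higher in SATs, against 26.3% without it, and the members called were 13 higher and 3 lower. Without the 6 libraries rich in B cell markers 9 members were higher and 9 lower, and 13 of the 19 calls were shared.

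The gelatinase MMP2 and 3 of the 5 membrane-type MMPs rose in SATs. MMP2 had a lowest, median and highest level of 376, 593 and 1099 FPKM in SATs, against 112, 326 and 1163 FPKM in VATs. All 18 SAT libraries lay above the VAT median, and the 1 VAT library above every SAT library was the OAT of animal 2. The log2 difference was 0.90 (SE 0.20, adjusted p = 0.000875 by limma, n = 18 libraries each), higher in 6 of 6 animals.

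MMP16, a membrane-type MMP also called MT3-MMP, had levels of 18.8, 89.4 and 222 FPKM (lowest, median, highest) in SATs, against 11.7, 31.2 and 74.4 FPKM in VATs. Of the SAT libraries 11 exceeded every VAT library, and the log2 difference was 1.35 (SE 0.27, adjusted p = 0.000456 by limma). MMP24, or MT5-MMP, ranged over 11.8, 17.2 and 28.2 FPKM in SATs, against 2.51, 8.14 and 22.0 FPKM in VATs. All SAT libraries were above the VAT median, with a log2 difference of 0.98 (SE 0.20, adjusted p = 0.000467 by limma). A second gene model annotated as MMP24 had a log2 difference of 1.00.

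MMP14, which activates the proform of MMP2 together with TIMP2, ranged over 134, 215 and 267 FPKM in SATs, against 66.6, 142 and 415 FPKM in VATs. The groups overlapped in most of their range, and the log2 difference of 0.52 (SE 0.17, adjusted p = 0.0176 by limma) held in 5 of 6 animals. Without the 6 libraries rich in B cell markers it was 0.27 (adjusted p = 0.171 by limma), and the call was also lost without animal 3 (adjusted p = 0.0572) or animal 4 (adjusted p = 0.1098). MMP23, a membrane MMP with a cysteine-rich tail, was low throughout, at 0.474, 1.34 and 3.00 FPKM in SATs, against 0.128, 0.689 and 1.52 FPKM in VATs. Its log2 difference was 0.88 (SE 0.20, adjusted p = 0.00107 by limma), and 17 of 18 SAT libraries were above the VAT median. None of the stromelysins and matrilysins measured, MMP7 and MMP11, passed the test.

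MMP9 and TIMP2 did not pass it either. TIMP2 had levels of 69.0, 137 and 190 FPKM in SATs, against 30.0, 128 and 190 FPKM in VATs, with a log2 difference of 0.37 (SE 0.23, adjusted p = 0.213 by limma). MMP9 had levels of 0.370, 0.627 and 2.86 FPKM in SATs, against 0.274, 0.658 and 3.41 FPKM in VATs, with a log2 difference of −0.17 (SE 0.26, adjusted p = 0.628 by limma). Within a library, the ratio of MMP2 to TIMP2 in FPKM had a lowest, median and highest value of 2.86, 4.88 and 8.97 in SATs, against 1.57, 3.14 and 8.02 in VATs. The ratio of MMP14 to TIMP2 was 1.17, 1.59 and 3.33 in SATs, against 0.818, 1.40 and 3.89 in VATs. Both ratios overlapped between the classes, and neither was tested.

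**Figure D2:**
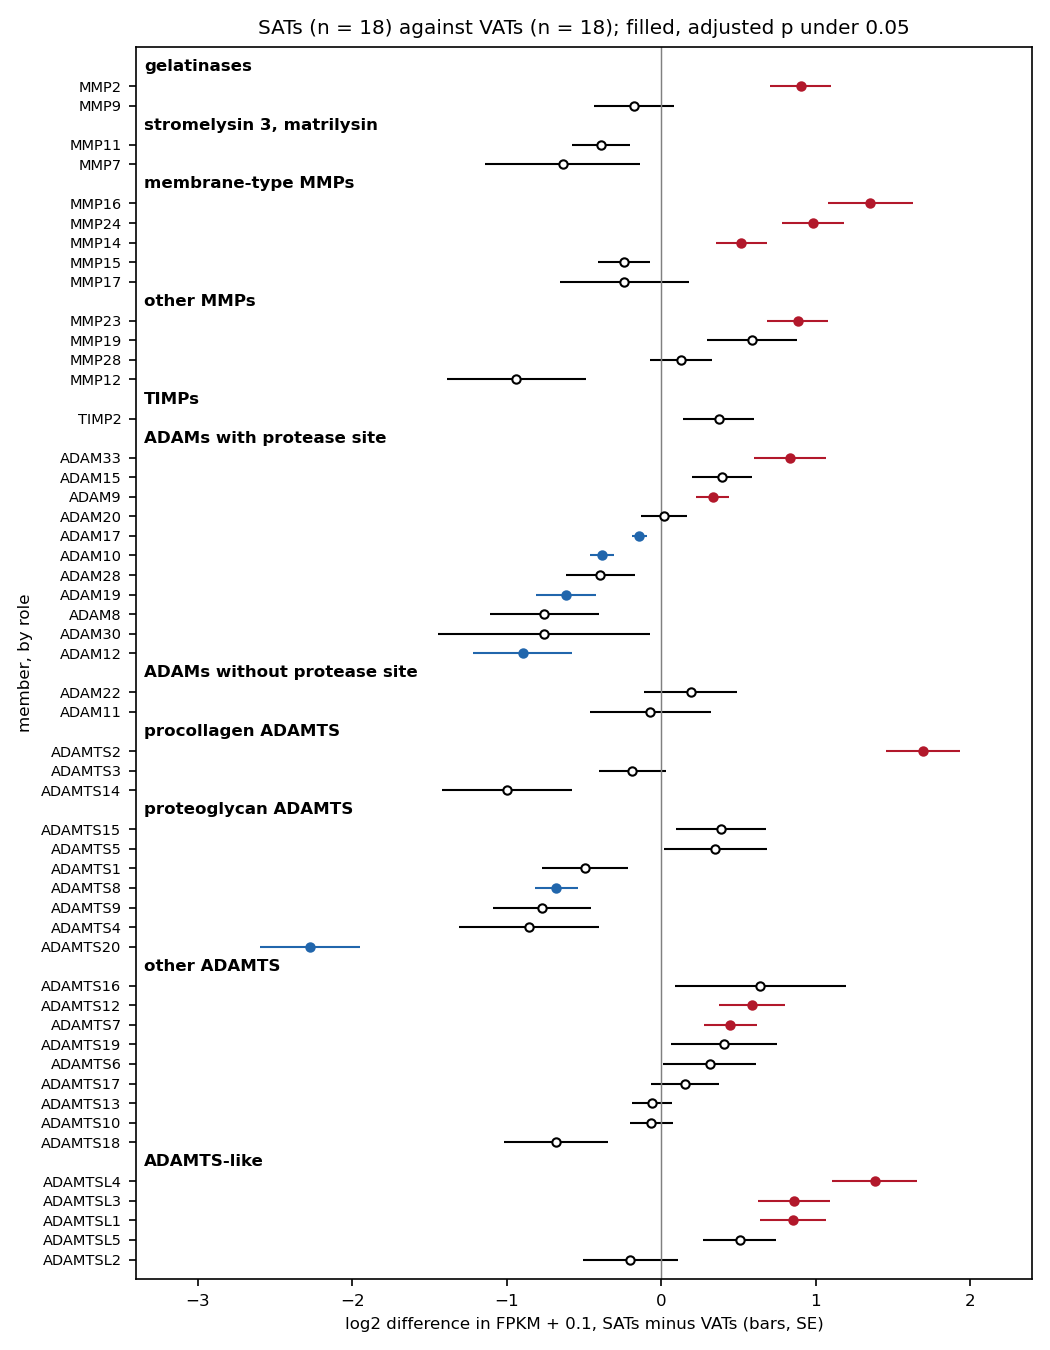
Log2 difference in FPKM + 0.1 of each member, SATs (n = 18 libraries) minus VATs (n = 18), with SE as bars and members grouped by role; filled points had an adjusted p under 0.05. ADAMTS2 lies farthest to the right at 1.69 and ADAMTS20 farthest to the left at −2.27.

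Among the procollagen-trimming enzymes, ADAMTS2 rose and the other 2 were not called. ADAMTS2 removes the N-terminal propeptide of collagen I and III. It ranged over 11.98, 62.5 and 95.9 FPKM in SATs, against 6.66, 14.6 and 38.3 FPKM in VATs. Of the SAT libraries 15 exceeded every VAT library, and the BSAT of animal 3 was the lowest of the SATs. The log2 difference was 1.69 (SE 0.24, adjusted p = 5.57e-06 by limma), higher in 6 of 6 animals. ADAMTS14 had a log2 difference of −1.001 (adjusted p = 0.0677 by limma) and ADAMTS3 one of −0.19.

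Of the ADAMTS-like proteins, 3 of 5 rose in SATs and none fell. ADAMTSL4, which binds fibrillin-1 microfibrils, ranged over 14.3, 47.7 and 79.1 FPKM in SATs, against 5.06, 17.3 and 46.9 FPKM in VATs. The classes overlapped, with 9 SAT libraries above every VAT library, and the log2 difference was 1.38 (SE 0.28, adjusted p = 0.000397 by limma). ADAMTSL3, also called punctin-2, had levels of 37.2, 51.2 and 112 FPKM in SATs, against 6.70, 36.2 and 124 FPKM in VATs. Every SAT library was above the VAT median (log2 difference 0.86, SE 0.23, adjusted p = 0.00571 by limma). ADAMTSL1, or punctin, ranged over 3.01, 9.90 and 26.4 FPKM in SATs, against 2.42, 5.15 and 9.92 FPKM in VATs, and its log2 difference was 0.85 (SE 0.21, adjusted p = 0.00316 by limma).

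Of the 7 enzymes that cut versican and aggrecan none was higher in SATs and 2 were lower, against 7.9% and 22.1% of all gene models, and their median log2 difference was −0.68. ADAMTS20 ranged over 0.195, 0.492 and 1.92 FPKM in SATs, against 0.341, 3.64 and 9.53 FPKM in VATs. All 18 SAT libraries lay below the VAT median and 14 VAT libraries exceeded every SAT library, with a log2 difference of −2.27 (SE 0.33, adjusted p = 6.69e-06 by limma). ADAMTS8, near the lower limit, had a log2 difference of −0.68 (adjusted p = 0.000498 by limma). ADAMTS9, the most abundant member, ranged over 60.5, 330 and 1149 FPKM in SATs, against 129, 612 and 1715 FPKM in VATs. Its log2 difference of −0.77 (SE 0.32, adjusted p = 0.0600 by limma) missed the threshold, and was −1.12 (adjusted p = 0.0102) without the 6 libraries rich in B cell markers. ADAMTS15, at medians of 104 FPKM in SATs and 103 FPKM in VATs, had a log2 difference of 0.39 (adjusted p = 0.311 by limma), which was −0.13 without those libraries.

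Of the other 9 ADAMTS enzymes, ADAMTS12 and ADAMTS7 were called, both of which are known to cut COMP. ADAMTS12 ranged over 259, 389 and 691 FPKM in SATs, against 62.9, 326 and 422 FPKM in VATs. The log2 difference was 0.59 (SE 0.21, adjusted p = 0.0343 by limma), with 5 SAT libraries above and 4 VAT libraries below all of the other class. Without the libraries rich in B cell markers it was 0.16 (adjusted p = 0.216 by limma), and without animal 1, 2 or 4 the adjusted p was 0.0853 to 0.133. ADAMTS7 had a log2 difference of 0.45 (adjusted p = 0.0438 by limma), and ADAMTS10 one of −0.06 on medians of 171 FPKM in SATs and 195 FPKM in VATs. The call of ADAMTS7 was lost without animal 1, 2, 3, 4 or 6. It was also lost without the libraries rich in B cell markers or those low in adipocyte markers. With no filter on low values, or with every library scaled to the same FPKM sum, ADAMTS7 missed the threshold as well.

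Of the 11 ADAMs with a protease site 2 were higher and 4 lower, against 7.9% and 22.1% of all gene models. Among these 4 only ADAM10 was called with quantile normalization. ADAM33, a fibroblast and smooth muscle member studied in asthma, ranged over 10.2, 29.9 and 62.2 FPKM in SATs, against 6.00, 14.7 and 39.9 FPKM in VATs (log2 difference 0.83, SE 0.23, adjusted p = 0.00716 by limma). ADAM9 had a log2 difference of 0.33 (adjusted p = 0.0182 by limma). The call of ADAM9 was lost without the 6 libraries rich in B cell markers and without animal 4 or 5. ADAM10, which sheds Notch and other receptors, fell to 19.1, 23.3 and 34.2 FPKM in SATs, against 23.4, 30.3 and 43.2 FPKM in VATs. The difference was small and steady, with 10 SAT libraries below every VAT library (log2 difference −0.38, SE 0.08, adjusted p = 0.000366 by limma). ADAM17 fell less, at medians of 89.3 FPKM in SATs and 97.6 FPKM in VATs (log2 difference −0.14, SE 0.05, adjusted p = 0.0288 by limma), and with quantile normalization its log2 difference was −0.01. The call of ADAM17 was lost without animal 2, 4 or 6 (adjusted p = 0.0538 to 0.167 by limma).

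ADAM12 and ADAM19, the meltrins alpha and beta, were lower in SATs. ADAM12 ranged over 5.28, 14.4 and 40.7 FPKM in SATs, against 4.56, 28.5 and 66.1 FPKM in VATs (log2 difference −0.90, SE 0.32, adjusted p = 0.0312 by limma). ADAM19 ranged over 33.4, 48.3 and 138 FPKM in SATs, against 40.0, 71.6 and 208 FPKM in VATs (log2 difference −0.62, SE 0.19, adjusted p = 0.0161 by limma). Both overlapped widely, and neither was called with quantile normalization (adjusted p = 0.0800 and 0.0589). ADAM12 also missed the threshold without the libraries rich in B cell markers (adjusted p = 0.208) or without animal 1, 2 or 4 (adjusted p = 0.0868 to 0.136), and ADAM19 without animal 1, 2 or 5 (adjusted p = 0.0514 to 0.0590). ADAM15, at medians of 144 FPKM in SATs and 118 FPKM in VATs, had a log2 difference of 0.39 (adjusted p = 0.115 by limma).

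**Figure D3:**
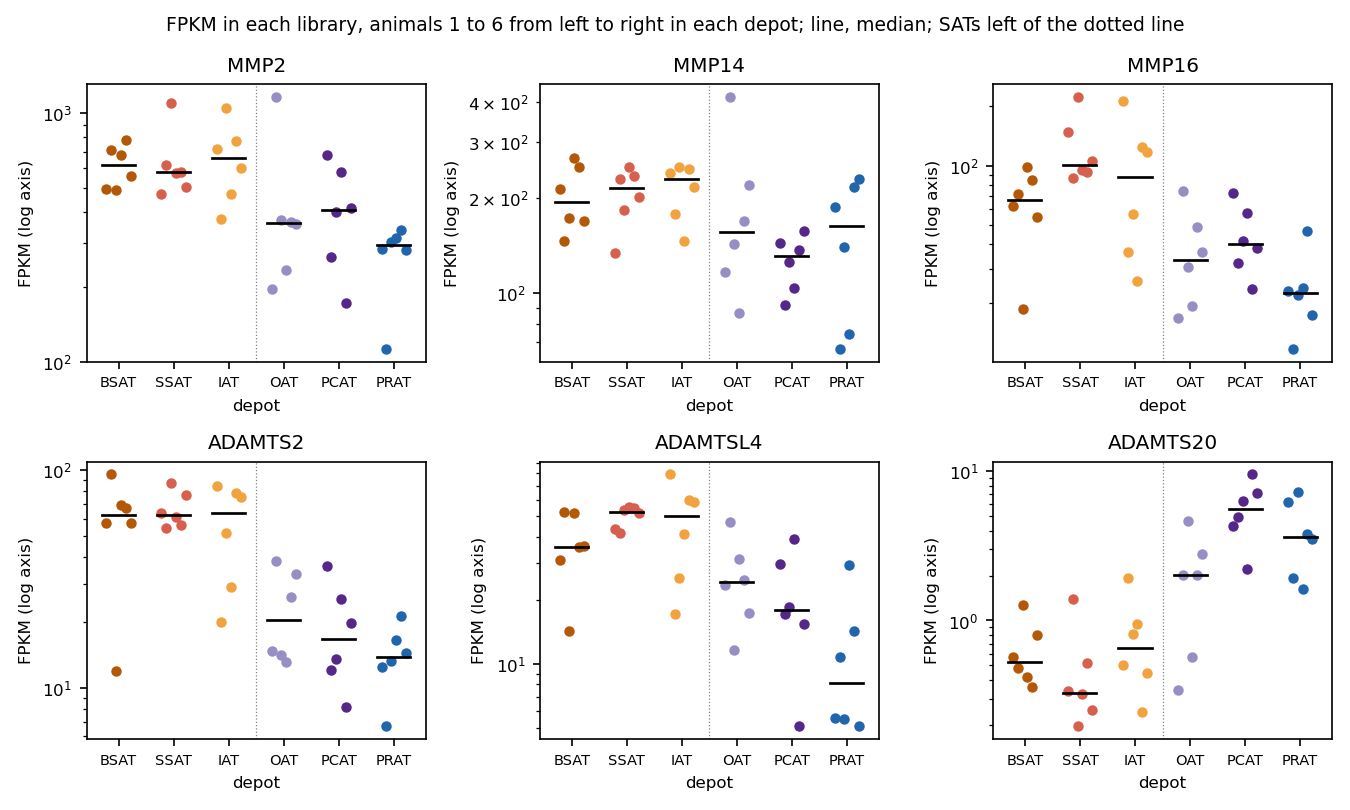
FPKM (log axis) of 6 members in each library by depot, SATs left of the dotted line and VATs right of it, animals 1 to 6 from left to right and the median as a line. The 3 SAT depots have the highest medians of ADAMTS2 and MMP16, and PCAT and PRAT those of ADAMTS20.

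Markers of fibroblasts and their progenitors moved with the same contrast: 9 of 10 were higher in SATs, and their score ran from −0.92 to 1.83 in SATs, against −1.98 to 0.28 in VATs. Of the T and natural killer cell markers 11 of 13 were lower in SATs, as were 5 of 9 mesothelial markers. Among the 7 Schwann cell markers 5 were lower in SATs and 1 was higher. None of the 10 adipocyte markers was called. The part of these cells in the members' differences was not tested.

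Other genes that act on the matrix were taken from lists of proteases, inhibitors and substrates. Of 15 other matrix proteases 6 were higher in SATs and 1 lower, with a median log2 difference of 0.32. BMP1, the procollagen C-proteinase, averaged 82.4 ± 28.8 FPKM in SATs and 46.2 ± 16.02 FPKM in VATs (SD over 18 libraries of each class; log2 difference 0.83, adjusted p = 0.000652 by limma). The serine protease HTRA1 had a log2 difference of 1.16, and PAPPA, which cuts an insulin-like growth factor binding protein, one of −1.15. DPP4, with 1.04, is also one of the fibroblast markers above.

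Of 16 inhibitors and binding proteins 9 were higher in SATs and 1 lower, with a median log2 difference of 0.59. A2M, a broad protease inhibitor of plasma and tissue, averaged 292 ± 157 FPKM in SATs and 138 ± 124 FPKM in VATs (log2 difference 1.36, adjusted p = 0.00101 by limma). RECK, a membrane-anchored inhibitor of MMP2, MMP9 and MMP14, averaged 5.26 ± 1.42 FPKM in SATs and 3.54 ± 1.16 FPKM in VATs (log2 difference 0.58, adjusted p = 0.00237 by limma). Among 15 substrates 7 were higher and none lower, with a median log2 difference of 1.24 and the highest value, 2.78, for COL1A1.

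Single depots were then compared, each with the average of the other 5. In SSAT 7 members were higher and 6 lower, 13.7% and 11.8% of members, against 3.9% and 5.23% of all gene models. With quantile normalization 70.4% of all calls were higher in SSAT, against 42.7% without it, and the members called were 7 higher and 4 lower. Leaving out animal 3 left no member called, and leaving out animal 6 left MMP16 higher and none lower. Compared directly with BSAT or with IAT, the other SAT depots, SSAT had no member called by limma, against 34 and 18 of all gene models.

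The members higher in SSAT included MMP16, ADAMTS6, ADAMTS2 and ADAMTSL4. MMP16 had levels of 86.0, 100 and 222 FPKM (lowest, median, highest) in SSAT, against 11.7, 39.8 and 213 FPKM in the other depots, with a log2 difference of 1.48 (SE 0.34, adjusted p = 0.00623 by limma, 6 against 30 libraries). All 6 SSAT libraries exceeded the median of the others, and 1 exceeded all of them. ADAMTS6, a relative of ADAMTS10, ranged over 2.62, 6.04 and 9.94 FPKM in SSAT, against 0.583, 1.89 and 4.92 FPKM elsewhere. It stood out more clearly, with 4 SSAT libraries above every other library (log2 difference 1.43, SE 0.34, adjusted p = 0.00725 by limma). ADAMTS2 had levels of 54.6, 62.5 and 87.1 FPKM in SSAT, against 6.66, 23.6 and 95.9 FPKM elsewhere (log2 difference 1.32, SE 0.32, adjusted p = 0.00901 by limma). ADAMTSL4 had levels of 41.6, 52.7 and 55.4 FPKM in SSAT, against 5.06, 25.3 and 79.1 FPKM elsewhere (log2 difference 1.15, SE 0.34, adjusted p = 0.0294 by limma). MMP23, ADAM33 and ADAMTS7 were also higher, with log2 differences of 0.98, 0.96 and 0.65.

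Of the 7 enzymes that cut versican and aggrecan, 5 were lower in SSAT and none higher, against 5.23% and 3.9% of all gene models. Their median log2 difference was −1.32. None of the 5 calls held without animal 3 or without animal 6. Among these 5, ADAMTS8 and ADAMTS9 were not called with quantile normalization or without animal 5. With a pseudocount of 1 the call of ADAMTS8 was also lost. ADAMTS4, also known as aggrecanase-1, had 20.4, 30.8, 3.15, 31.9, 6.49 and 1.47 FPKM in the SSAT of animals 1 to 6, against a lowest, median and highest level of 5.61, 43.8 and 199 FPKM in the other depots. All SSAT values were below the median of the others, those of animals 3 and 6 below every other library (log2 difference −2.24, SE 0.55, adjusted p = 0.00915 by limma). ADAMTS1 had 40.3, 29.7, 21.3, 52.8, 23.0 and 7.83 FPKM in the SSAT of animals 1 to 6, against 13.96, 70.7 and 176 FPKM elsewhere (log2 difference −1.35, SE 0.32, adjusted p = 0.00753 by limma). ADAMTS1 was lowest in animal 6, the only SSAT library below all others.

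ADAMTS20 had levels of 0.195, 0.329 and 1.40 FPKM in SSAT, against 0.245, 1.92 and 9.53 FPKM elsewhere (log2 difference −1.79, SE 0.39, adjusted p = 0.00380 by limma). ADAMTS9 had 327, 532, 60.5, 359, 179 and 76.1 FPKM in the SSAT of animals 1 to 6, against 129, 463 and 1715 FPKM elsewhere (log2 difference −1.32, SE 0.40, adjusted p = 0.0343 by limma). Again animals 3 and 6 were below every other library, while animal 2 was above the median of the others. ADAMTS8 and ADAMTS18 were lower as well, with log2 differences of −0.62 and −1.48.

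VCAN, the gene of versican, was at 1034, 2797 and 7110 FPKM in SSAT, against 133, 590 and 2883 FPKM elsewhere (log2 difference 2.19, SE 0.38, adjusted p = 0.000452 by limma). The summed FPKM of the 7 enzymes was 154, 406 and 795 in SSAT, against 163, 687 and 2158 elsewhere. The ratio of VCAN to that sum was 1.301, 6.84 and 46.2 in SSAT, against 0.119, 1.08 and 4.84 elsewhere; this ratio was chosen after its values were seen and was not tested. Fibroblast markers moved with SSAT, 9 of 10 being higher, with scores of 0.39 to 1.83 in SSAT, against −1.98 to 1.16 elsewhere, and their part in the members' differences was not tested.

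**Figure D4:**
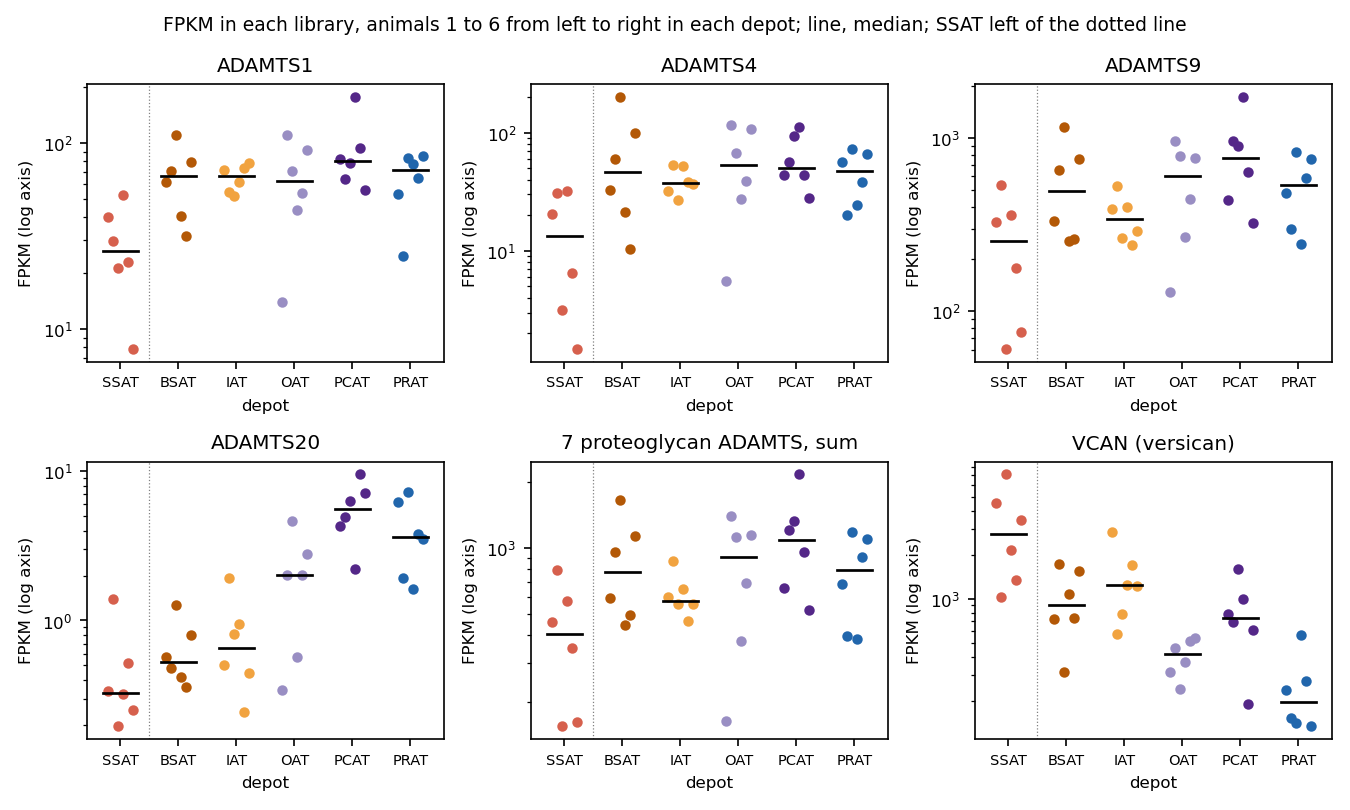
FPKM (log axis) of 4 enzymes that cut versican and aggrecan, of the sum over all 7 and of VCAN in each library, SSAT left of the dotted line, animals 1 to 6 from left to right and the median as a line. ADAMTS4 has its lowest values, 1.47 and 3.15 FPKM, in the SSAT of animals 6 and 3, and VCAN its highest, 7110 FPKM, in SSAT.

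In PRAT 1 member was higher and 10 were lower, 1.96% and 19.6% of members, against 7.6% and 3.29% of all gene models. With quantile normalization 42.4% of all calls were higher in PRAT, against 69.8% without it, and the members were again 1 higher and 10 lower. Leaving out animal 2 or animal 3 left 4 members lower, and leaving out animal 6 left 3.

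The libraries of this comparison are also those of the SSAT and the SAT comparisons, which are therefore not independent of it. ADAMTSL4, the microfibril-binding protein, had levels of 5.06, 8.16 and 29.3 FPKM in PRAT, against 5.06, 35.9 and 79.1 FPKM in the other depots (log2 difference −1.72, SE 0.34, adjusted p = 0.00178 by limma). ADAM33 fell to 6.00, 8.16 and 15.6 FPKM in PRAT, against 9.45, 24.4 and 62.2 FPKM elsewhere. For ADAM33, 4 PRAT libraries were below every other library (log2 difference −1.36, SE 0.26, adjusted p = 0.00157 by limma). ADAMTS2 had 6.66, 13.8 and 21.5 FPKM in PRAT, against 8.21, 44.8 and 95.9 FPKM elsewhere (log2 difference −1.42, SE 0.32, adjusted p = 0.00467 by limma).

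MMP16 had 11.7, 22.6 and 46.3 FPKM in PRAT, against 16.8, 59.8 and 222 FPKM elsewhere (log2 difference −1.41, SE 0.34, adjusted p = 0.00840 by limma). MMP2 fell to 112, 294 and 338 FPKM in PRAT, against 173, 533 and 1163 FPKM elsewhere (log2 difference −0.98, SE 0.27, adjusted p = 0.0163 by limma). MMP16 and MMP2 were each below every other library in 1 PRAT library. ADAMTS16, which had the largest fall at −2.13 (SE 0.62, adjusted p = 0.0245 by limma), had 0.451, 8.56 and 23.9 FPKM in PRAT, against 1.15, 35.4 and 400 FPKM elsewhere, and was lower in 5 of 6 animals. The calls of ADAMTS16 and MMP2 were each lost without animal 2, 3 or 6, and that of MMP16 without animal 6. Without the 6 libraries rich in B cell markers the call of ADAMTS16 was lost as well. ADAMTSL5, MMP23, ADAMTSL1 and ADAMTS7 were also lower, with log2 differences between −0.97 and −0.52, and their calls were each lost without animal 2, 3 or 6.

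ADAMTS20 rose in PRAT, to 1.63, 3.64 and 7.25 FPKM, against 0.195, 0.805 and 9.53 FPKM elsewhere (log2 difference 1.61, SE 0.39, adjusted p = 0.00779 by limma). Of the fibroblast markers 6 of 10 were lower in PRAT, with scores of −1.98 to −0.06 in PRAT, against −1.43 to 1.83 elsewhere. Of the 15 substrates 8 were lower, COL1A1 at 3087 ± 2910 FPKM in PRAT and 28302 ± 25203 FPKM elsewhere (SD, n = 6 and 30 libraries). The part of the fibroblast markers in these differences was not tested.

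In PCAT 4 members were higher and 1 lower, 7.84% and 1.96% of members, against 3.26% and 1.01% of all gene models. With quantile normalization 62.3% of all calls were higher in PCAT, against 76.4% without it. ADAMTS20 reached 2.22, 5.62 and 9.53 FPKM in PCAT, against 0.195, 0.805 and 7.25 FPKM in the other depots (log2 difference 2.28, SE 0.39, adjusted p = 0.000205 by limma). All PCAT libraries were above the median of the others for ADAMTS20, and the call held without each animal in turn. MMP17, a membrane-type MMP held by a lipid anchor, had 1.09, 2.44 and 4.35 FPKM in PCAT, against 0, 0.645 and 3.52 FPKM elsewhere (log2 difference 1.79, SE 0.46, adjusted p = 0.0172 by limma). The call of MMP17 was lost without animal 2, 3, 4 or 6.

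ADAM22, which lacks a protease site and binds the neuronal protein LGI1, and ADAMTS8 were higher in PCAT, with log2 differences of 1.42 and 0.76. Both were low, at means of 0.536 and 0.176 FPKM over the 36 libraries. The call of ADAMTS8 was lost without animal 5 or 6. ADAMTSL3 fell to 6.70, 25.3 and 37.6 FPKM in PCAT, against 13.9, 46.7 and 124 FPKM elsewhere (log2 difference −1.19, SE 0.29, adjusted p = 0.0133 by limma). A second gene model annotated as ADAMTSL3 had a log2 difference of −1.26. Lower members numbered 4 without the 6 libraries rich in B cell markers and 3 without the 4 low in adipocyte markers, and none without animal 3, 5 or 6. Mesothelial markers were higher for 8 of 9, with scores of −0.60 to 6.27 in PCAT, against −1.68 to 4.38 elsewhere, and Schwann cell markers for 5 of 7, with scores of 1.22 to 1.84 in PCAT, against −1.34 to 0.76 elsewhere. Their part in the members' differences was not tested.

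The other 3 depots had few calls. In OAT 2 members were lower and none higher, against 0.447% and 0.334% of all gene models; 3 members were higher at an unadjusted p under 0.05 by limma, as were 2396 of all 17688 gene models. Without the 6 libraries rich in B cell markers, or without the 4 low in adipocyte markers, 1 member was lower in OAT. With quantile normalization 26.8% of all calls were higher in OAT, against 42.8% without it. ADAMTS7 had 10.1, 21.3 and 32.7 FPKM in OAT, against 14.8, 36.3 and 56.9 FPKM elsewhere (log2 difference −0.80, SE 0.16, adjusted p = 0.00961 by limma). Without the 6 libraries rich in B cell markers it was −0.47 (adjusted p = 0.133), and it also missed the threshold without animal 1, 3, 4 or 6. ADAM22 had a log2 difference of −1.24 in OAT, on low levels of 0.0645 to 0.519 FPKM against a pseudocount of 0.1. Its call was lost with a pseudocount of 1 and without animal 1, 3, 5 or 6.

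In BSAT 2 members were lower, against 1.49% of all gene models, and none was higher, against 0.526%, with 5 higher at an unadjusted p under 0.05 by limma, as were 955 of all gene models. Without the library rich in muscle markers no member was lower in BSAT. With quantile normalization 40.4% of all calls were higher in BSAT, against 26.1% without it. ADAMTSL2, which binds fibrillin and latent transforming growth factor beta binding protein, fell to 2.80, 3.87 and 5.54 FPKM in BSAT, against 3.24, 12.5 and 34.8 FPKM elsewhere, where 27 of 30 libraries were above every BSAT library. The log2 difference was −1.42 (SE 0.34, adjusted p = 0.0204 by limma), and −1.39 (adjusted p = 0.0543) without the BSAT library rich in muscle markers. The call was also lost without animal 1, 2, 4 or 6 (adjusted p = 0.0567 to 0.105). ADAMTS3, at 0.179, 0.268 and 0.374 FPKM in BSAT, against 0.215, 0.605 and 1.22 FPKM elsewhere, had a log2 difference of −0.95 (adjusted p = 0.0304 by limma). Its call was lost without the library rich in muscle markers and without animal 1, 2, 3, 5 or 6. With the animal as a block 4 members were lower in BSAT, ADAM10 and ADAMTS20 in addition. In IAT no member was called by limma, against 0.136% of all gene models higher and 0.0452% lower, and 6 members were higher and 3 lower at an unadjusted p under 0.05, as were 541 and 929 of all gene models. Without the 4 libraries low in adipocyte markers 1 member was higher in IAT.

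**Figure D5:**
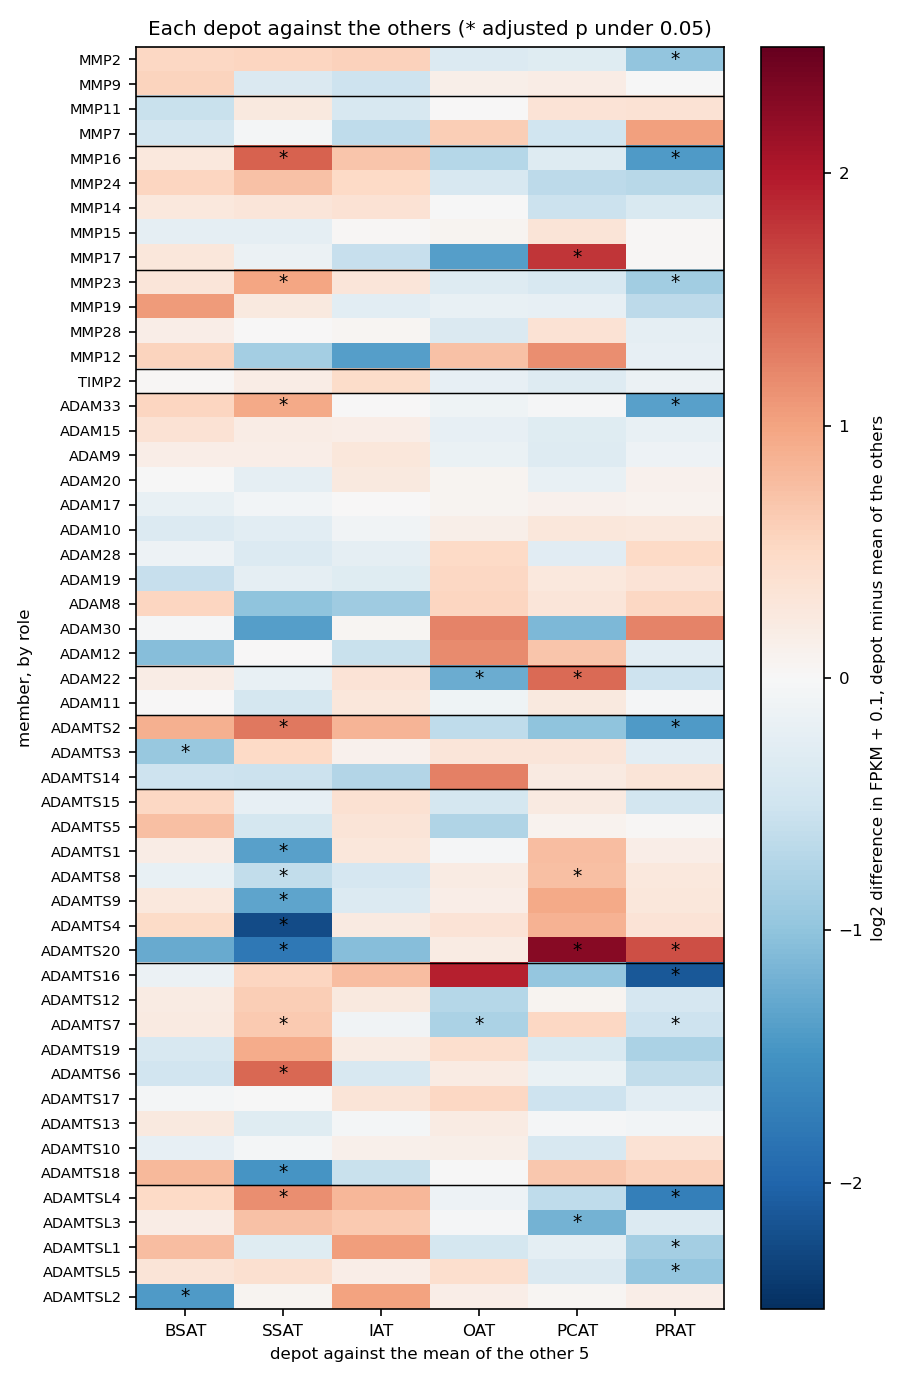
Log2 difference in FPKM + 0.1 of each member (rows, by role) in each depot relative to the average of the other 5 (columns), red for higher and blue for lower, with an asterisk for an adjusted p under 0.05. SSAT and PRAT carry most asterisks, with MMP16, MMP23, ADAM33, ADAMTS2 and ADAMTSL4 red in SSAT and blue in PRAT.

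In the order of depot means no step between neighbouring depots passed the test over the 36 libraries. Over 255 such pairs (51 members with 5 steps each) none was called by limma, against 0.167% of the steps of all gene models. At an unadjusted p under 0.05 these shares were 5.88% (15 steps) for members and 2.2% for all gene models. Without the 6 libraries rich in B cell markers 4 steps were called, without the 4 low in adipocyte markers 3, without animal 2 also 3 and without animal 1 a single step. Over all 15 pairs of depots 9.8% of the tests on members were called, against 5.48% over all gene models. ADAMTS2, ordered SSAT, BSAT, IAT, OAT, PCAT and PRAT from high to low, was called in 7 of 15 pairs, each of a SAT against a VAT depot. ADAMTS20, ordered PCAT, PRAT, OAT, IAT, BSAT and SSAT, was likewise called in 7 such pairs. MMP2, ordered IAT, SSAT, BSAT, OAT, PCAT and PRAT, was called in 3 pairs, each of a SAT depot against PRAT. TIMP2, MMP14, MMP9, ADAMTS10, ADAM15, ADAMTS15, ADAM17 and ADAM19 were called in none.

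The 3 males were compared with the 3 females on the mean of each animal over its depots. No member and none of the 17688 gene models was called by limma. At an unadjusted p under 0.05 there were 478 gene models, of which 2 were members, ADAM22 with a log2 difference of −0.61 and ADAMTS10 with one of 0.37, males minus females.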

How the data were processed

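Per the labels and the study's methods, the authors aligned paired-end RNA sequencing reads with HISAT2 2.2.1 to their own buffalo assembly and deposited 1 table of FPKM from StringTie 2.1.4 for 36 libraries; symbols in it come from protein matches. The library kit named in the labels differs from the rRNA depletion in the methods. FPKM are not counts, so the number of reads behind each value is unknown, and FPKM summed to 796645 to 911384 per library. Gene models with a mean above 0.1 FPKM were tested on log2(FPKM + 0.1) with limma 3.58.1 (trend) in R 4.3.3, with Benjamini-Hochberg adjustment over all of them. Other steps used Python 3.11.15. The fit was first run on simulated data without an animal effect, which cannot speak to libraries that share an animal. The limma test replaces the count test of the study. SATs against VATs had no other term, each depot and pair of depots came from 1 model of 6 depot means, and sexes were compared on means per animal. Libraries with the same replicate number come from 1 animal: deviations from depot means correlated at 0.217 on average within an animal and −0.0387 between animals. A fit with this block was an alternative. No pair of libraries correlated above 0.988, and none was treated as a repeat.

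Values were printed for all called members with a mean of at least 1 FPKM in SATs against VATs (at most 10 in each direction), for at most 4 in each direction in a depot that had the same sign in 6 of 6 animals, and for the TIMPs, MMP2, MMP9, MMP14 and the 10 most abundant members; others named were chosen after their values were seen. Members, roles and marker lists were chosen with earlier results of these data known. Alternatives were other pseudocounts (1 and 0.01), a minimum mean of 1 FPKM or none, scaling every library to the same FPKM sum (TPM), quantile normalization, the block, leaving out each animal and leaving out libraries that stood apart. No genome of the assembly was used, so sequences and positions are not given here.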

Additional observations from a re-analysis of the deposited data

Results flagged for a closer look

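Among the 28 members followed by name, each of the 168 groups of 6 libraries was screened for 1 library far from the others, and 13 had one. For normally distributed values chance flags about 1 in 20 such groups; the rate for FPKM, which are skewed, was not measured. Animal 2 gave 4 of them. Its OAT library had 1163 FPKM of MMP2, against 197 to 374 FPKM in the other OAT libraries, and 22.0 FPKM of MMP24, against 6.79 to 10.3 FPKM. Its PRAT library, rich in B cell markers, had 112 FPKM of MMP2, against 281 to 338 FPKM, and 13.9 FPKM of ADAMTSL3, against 35.0 to 55.1 FPKM.

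Animal 3 gave 4 as well. Its BSAT library had 11.98 FPKM of ADAMTS2, against 57.3 to 95.9 FPKM in the other BSAT libraries, and 18.8 FPKM of MMP16, against 54.9 to 98.2 FPKM. Its SSAT library had 1099 FPKM of MMP2, against 475 to 619 FPKM, and its PRAT library 302 FPKM of ADAMTS10, against 188 to 223 FPKM.

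The other 5 came from animals 1, 4, 5 and 6. ADAM19 was at 138 FPKM in the IAT of animal 4, rich in B cell markers, against 37.0 to 57.4 FPKM in the other IAT libraries. MMP9 was at 3.20 FPKM in the OAT of animal 6, against 0.447 to 0.800 FPKM, and at 2.66 FPKM in the PRAT of animal 1, against 0.448 to 0.679 FPKM. MMP23 was at 0.128 FPKM in the PCAT of animal 5, against 0.688 to 1.52 FPKM. ADAM15 was at 95.8 FPKM in the BSAT of animal 5, against 144 to 169 FPKM.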

How the results depend on the processing

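Quantile normalization shifted the median log2 difference of all gene models between SATs and VATs by 0.12 and between SSAT and the other depots by 0.11; in the SAT comparison it left 3 members lower, against 6. Lower members in BSAT, 2 as reported, were 1 with a pseudocount of 1, 1 with a minimum mean of 1 FPKM, 4 with the replicate block and 0 without the library rich in muscle markers. Lower members in OAT, 2 as reported, were 1 under that pseudocount, that minimum, without the 6 libraries rich in B cell markers and without the 4 low in adipocyte markers, an alternative chosen after seeing the data. Higher members in PCAT, 4 as reported, were 2 with the minimum mean, and lower members, 1 as reported, were 4 without the B cell rich libraries and 3 without the adipocyte-low ones. In IAT 1 member was higher without the adipocyte-low libraries, against none. Neighbouring depots differed in 4 pairs without the B cell rich libraries and in 3 without the adipocyte-low ones, against none.

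Leaving out 1 animal at a time gave 10 to 12 higher and 3 to 6 lower members in SATs (3 without animal 2), 0 to 1 higher and 0 to 1 lower in BSAT, 0 to 7 higher and 0 to 6 lower in SSAT, 0 to 1 higher in IAT, 0 to 2 lower in OAT, 2 to 5 higher and 0 to 1 lower in PCAT, 3 to 10 lower in PRAT, and 0 to 3 neighbouring pairs. BSAT kept no lower member without animal 1, 2 or 6 and OAT none without animal 1, 3 or 6; SSAT rested on animals 3 and 6, PCAT on animal 6 for its higher members (2 without it) and on animals 3, 5 and 6 for its lower one, and PRAT on animals 2, 3 and 6.

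Values that changed sign had not passed the test: TIMP2 at −0.0452 and ADAMTS15 at −0.13 without the B cell rich libraries, MMP9 at 0.0134 without animal 6 (−0.45 to 0.0134 over the animals left out) and ADAMTS10 at 0.0539 with quantile normalization, all in SATs against VATs. ADAMTS9 passed in that comparison with TPM scaling (−0.81, adjusted p = 0.0450 by limma), with the depot means (−0.77, adjusted p = 0.0462) and without animal 1 (−0.97, adjusted p = 0.0474). MMP17 in PCAT did not pass with a pseudocount of 0.01. The replicate block changed no call among the 39 member values followed. With it BSAT had 4 lower members, against 2 as reported, and no other count changed by more than 1 member. The causes of these changes were not tested. No block could be fitted between the sexes because each animal has 1 sex, and the model of depot means applies to the SAT comparison alone. Without read counts, the precision of low members such as MMP9 and MMP23 cannot be given.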

Other observations

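The 6 libraries with high B cell and plasma cell scores, which also had high T and natural killer cell scores, stood apart in some members. These samples were grouped by their marker levels and not by the study, and the values are a description without a test. ADAM30 ranged over 13.8, 43.4 and 77.3 FPKM (lowest, median, highest) in the 6 libraries, against 0, 1.29 and 9.16 FPKM in the other 30. ADAMTS14, a procollagen-trimming enzyme, ranged over 7.46, 14.9 and 31.1 FPKM, against 0.505, 1.98 and 4.64 FPKM. Neither gene overlapped between the 2 sets of libraries, and these were the only such members, 3.92% of the 51. That share is below the one of all gene models tested, of which 6.25% lay above the other 30 libraries in all 6. A further 0.0961% of gene models lay below them in all 6. ADAM8, a member known from leukocytes, had 3.60, 6.08 and 8.44 FPKM, against 0.562, 1.42 and 9.79 FPKM, and ADAM19 had 81.6, 153 and 208 FPKM, against 33.4, 52.4 and 85.9 FPKM.

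Other members were low in the same 6 libraries. TIMP2 ranged over 30.0, 41.5 and 72.7 FPKM, against 69.0, 147 and 190 FPKM in the other 30, and ADAMTS12 over 62.9, 124 and 305 FPKM, against 259, 369 and 691 FPKM. MMP14 had 66.6, 89.4 and 147 FPKM, against 104, 194 and 415 FPKM, and MMP19 had 0.874, 1.79 and 2.42 FPKM, against 2.15, 4.26 and 17.0 FPKM. For these 4 genes the sets overlapped. The libraries differ in depot and animal as well, and what part these have in the values was not tested.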
